A study of Homo sapiens with 48 samples.

Results

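Cells that rely on UPF1 carrying the F192E change were compared with cells that rely on wild-type UPF1, after an siRNA against endogenous UPF1 (siUPF1). The comparison used 3 F192E libraries and 3 wild-type (WT) libraries, 6 of the 48 libraries in the series, chosen by their line and siRNA labels. All were made from Flp-In 293 T-REx cells, a derivative of the human embryonic kidney line 293 with an integrated recombination site for inserting a transgene. The F192E cells stably expressed UPF1 F192E with a CLIP tag, and the WT cells stably expressed CLIP-tagged wild-type UPF1. Cells were reverse-transfected with 40 nM siRNA and harvested after 72 h, and the series' design text calls the 3 libraries of a group biological replicates. Further groups used here were F192E and WT cells with a non-targeting siRNA (siNT), cells labelled CLIP without UPF1 in the name (read here as the tag alone), and lines expressing the CLIP-UPF1 forms labelled E797R, I757R, FE-ER, IR-ER and LECY. Each had 3 libraries per siRNA. The labels spell out neither the names FE-ER, IR-ER and LECY, nor whether a line was a clone, nor what drove or induced the transgene.

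UPF1 is an RNA helicase and the central factor of nonsense-mediated decay (NMD), which degrades mRNAs whose translation ends at a premature stop codon and also a set of normal transcripts. UPF2 binds the cysteine- and histidine-rich domain near the N terminus of UPF1 and links it to UPF3B and the exon junction complex. The phenylalanine that F192E replaces lies in that domain, and its change to glutamate is known to disturb UPF2 binding. Several mRNAs that encode NMD factors are themselves NMD substrates, so that they accumulate when the pathway slows.

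The codon changed in F192E is shown with its surroundings, since the whole comparison turns on it. In hg38 it is TTC, in the coding sequence of 1118 codons of the transcript UPF1-201, at chr19:18850187-18850189 on the plus strand, in exon 4. The 63 bases at chr19:18850157-18850219 read, 5′ to 3′ with the codon of phenylalanine in capitals, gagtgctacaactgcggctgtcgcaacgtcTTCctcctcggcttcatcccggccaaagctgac. They come from the GENCODE 29 reference transcript, and the sequence of the transgene was not used here.

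UPF1 RNA (chromosome 19, 18831938 to 18868236) was read before the other genes, as a check of the labels. Levels are CPM, counts scaled to the normalized size of each library. UPF1 stood at 3799, 3861 and 3856 CPM in F192E, against 4982, 4345 and 4218 CPM in WT with siUPF1. The F192E libraries lay below the WT libraries without overlap. The log2 fold change was −0.23 (95% interval −0.46 to −0.01) with an adjusted p of 0.383 by edgeR's quasi-likelihood test with Benjamini-Hochberg adjustment over all genes. An exact two-sided permutation test over the 3 and 3 libraries gave p = 0.1, the smallest value it can give. With siNT, UPF1 averaged 3683 ± 366 CPM in F192E and 4059 ± 379 CPM in WT (SD, n = 3 each), and CLIP cells with siUPF1 held 20.4 ± 0.916 CPM (n = 3). Transgene and endogenous reads fall on the same gene in the count table, so these levels do not show how much endogenous UPF1 was left.

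F192E cells held more RNA from a limited set of genes, among them 6 genes of NMD factors, 9 established NMD targets and 23 transcribed pseudogenes. Of 16697 genes tested, 252 were higher (1.51%) and 52 were lower (0.311%) in F192E than in WT with siUPF1 at an adjusted p under 0.05 (edgeR). At least 1.5-fold changes were seen in 110 of the higher genes (0.659% of all genes tested) and 12 of the lower ones (0.0719%). A fit with the replicate number as a block called 710 higher (4.25%) and 457 lower (2.74%) genes, and these included all 252 and all 52. A fit with the libraries of F192E and WT with siUPF1 alone called 81 higher and 4 lower. The numbers pair these libraries: same-numbered F192E and WT libraries deviated together, with correlations across genes of 0.117, 0.187 and 0.353. The counts fell to 156 and 18 without F192E replicate 1 and to 128 and 23 without WT replicate 2. Without F192E replicate 2, F192E replicate 3 or WT replicate 1 the lower genes numbered 30, 24 and 25, and DESeq2 called 114 lower. Over all genes tested the median log2 difference was −0.01, and the median level of the higher genes was 49.4 CPM and that of the lower genes 56.7 CPM over the 6 libraries. All 3 F192E libraries lay above all 3 WT libraries in 249 of the 252 higher genes, beside 8.18% of all genes tested. All 3 F192E libraries lay below all 3 WT libraries in 50 of the 52 lower genes, beside 6.83%. The genes were called from these same 6 libraries, so their separation follows from the choice and is no further support.

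**Figure D1:**
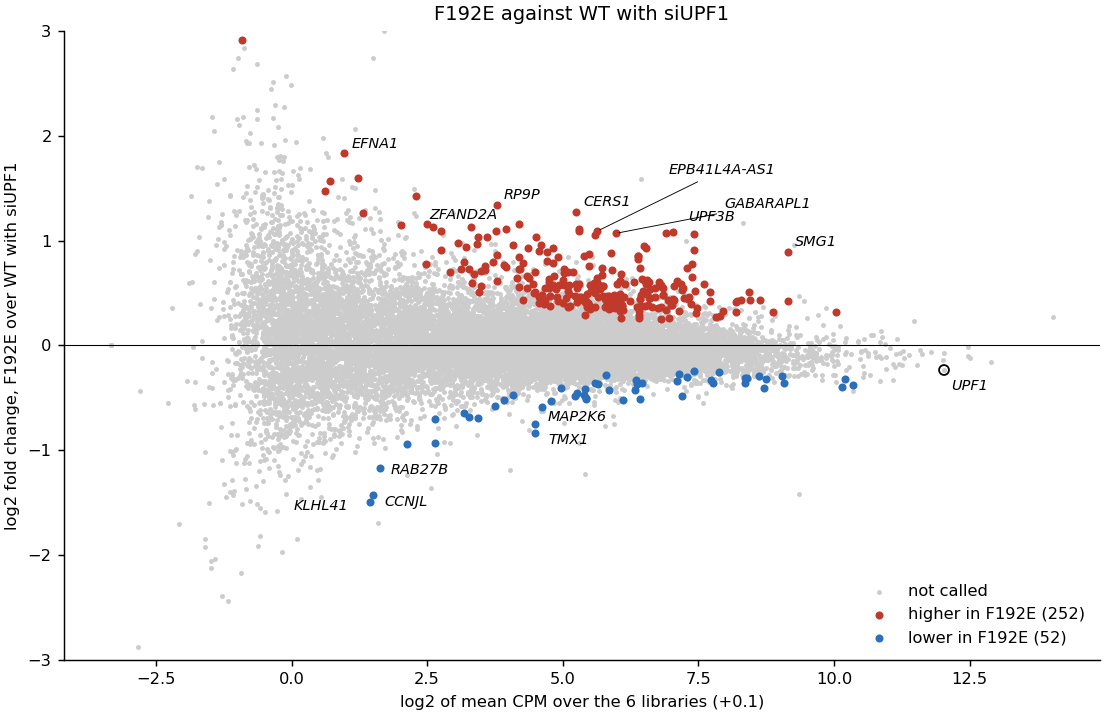
Each point is 1 of the genes tested, with the log2 of its mean CPM over the 6 libraries on the horizontal axis and the log2 fold change of F192E over WT with siUPF1 on the vertical axis. The 252 higher genes (red) outnumber the 52 lower genes (blue), UPF1 (open circle) lies slightly below 0, and 36 genes, none of them called, lie beyond the vertical axis.

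Among the 20 NMD factor genes 6 were higher, 1 was lower and 13 did not pass the test, beside 1.51% higher and 0.311% lower among all genes. The replicate block gave the same counts, beside 4.25% higher and 2.74% lower among all genes. SMG1 encodes the kinase that phosphorylates UPF1 (chromosome 16, 18804853 to 18926454) and had 803, 703 and 713 CPM in F192E, against 400.3, 429.5 and 363 CPM in WT. Every F192E library held more SMG1 RNA than any WT library. The log2 fold change was 0.90 (SE 0.09, adjusted p = 9.38e-09, edgeR), or 1.86-fold. The pseudogenes SMG1P1 to SMG1P7, copies of parts of SMG1 that can share its reads, had log2 differences between −0.09 and 0.49, and none was called. SMG9, a subunit of the SMG1 kinase complex, had 106, 127 and 87.2 CPM in F192E, against 72.8, 64.4 and 55 CPM in WT (log2 0.74, SE 0.13, adjusted p = 0.000284, edgeR). The groups did not overlap, although the F192E libraries spread more widely than those of SMG1. SMG8, the other regulatory subunit, had a difference of −0.16 on the log2 scale (95% interval −0.53 to 0.21, adjusted p = 0.812, edgeR).

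SMG5 and SMG6, which encode proteins that bind phosphorylated UPF1, were higher as well. SMG6, the endonuclease of the pathway, had 142, 143 and 123 CPM in F192E, against 109, 86.9 and 83 CPM in WT (log2 0.55, SE 0.11, adjusted p = 0.00187, edgeR). SMG5, which links UPF1 to decay of the mRNA, had 250.0, 268 and 225 CPM in F192E, against 205, 176 and 140.0 CPM in WT (log2 0.51, SE 0.14, adjusted p = 0.0439, edgeR). For both genes the groups did not overlap, and SMG5 lay closest to the threshold: its call was lost without any of the F192E libraries and without WT replicate 2 or 3.

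UPF2 and UPF3B, the partners through which UPF1 meets the exon junction complex, were higher too, and UPF3A was not called. UPF3B (chromosome X, 119805311 to 119852998) had 168, 214 and 155 CPM in F192E, against 88.9, 81.1 and 83.2 CPM in WT. The lowest F192E library had more UPF3B RNA than the highest WT library, and replicate 2 was the highest of the F192E libraries. Its log2 fold change was 1.08 (SE 0.11, adjusted p = 2.17e-08, edgeR), the largest of the NMD factors. UPF2 had 160.3, 168 and 147 CPM in F192E, against 112, 114 and 93.9 CPM in WT (log2 0.57, SE 0.13, adjusted p = 0.0122, edgeR), and its call was lost without F192E replicate 1 or 2 or WT replicate 3. UPF3A, the paralog of UPF3B, differed by 0.19 (95% interval 0.00 to 0.38, adjusted p = 0.427, edgeR). RUVBL1, an ATPase that acts with SMG1, had 131, 124 and 129 CPM in F192E, against 153, 149 and 163 CPM in WT. It was the member that was lower (log2 −0.27, SE 0.07, adjusted p = 0.0439, edgeR), and that call was lost when any of the 6 libraries was left out. The release factor genes ETF1, GSPT1 and GSPT2 had log2 differences of −0.11, −0.16 and −0.36, and the cap-binding genes NCBP1 and NCBP2 of −0.05 and 0.21, none of them called. Of 12 exon junction complex genes edgeR called 0, and 1 was higher with the replicate block (median log2 difference −0.01).

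**Figure D2:**
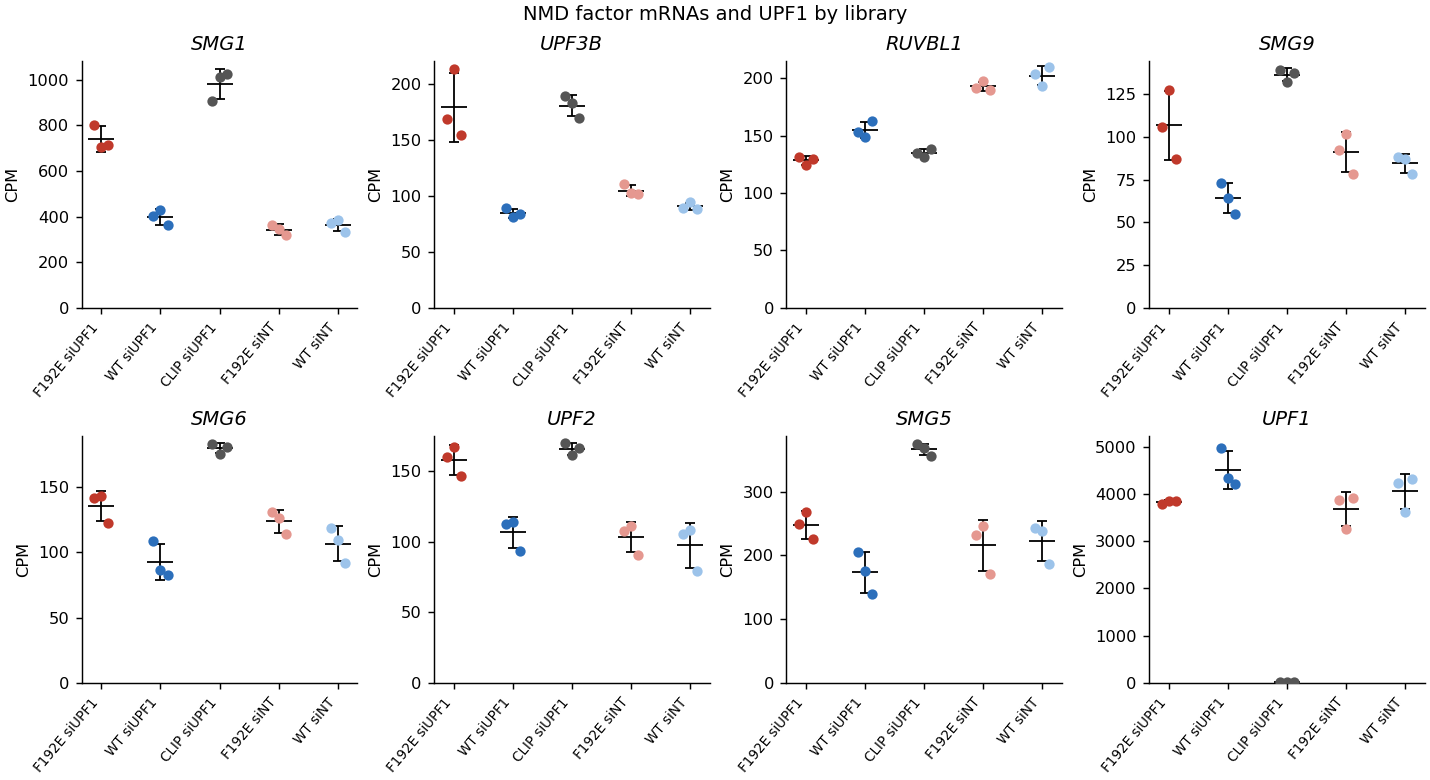
Each panel gives the CPM of 1 gene in each library (points), with the mean and SD of the 3 libraries of a group (bars), for F192E, WT and CLIP with siUPF1 and for F192E and WT with siNT. The F192E libraries with siUPF1 lie above the WT libraries with siUPF1 in the panels of SMG1, UPF3B, SMG9, SMG6, UPF2 and SMG5 and below them in those of RUVBL1 and UPF1, and UPF1 lies near 0 in CLIP with siUPF1.

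Of 45 established NMD targets 9 were higher, 0 were lower and 36 did not pass the test, beside 1.51% higher and 0.311% lower among all genes. The median log2 difference was 0.29 over the list, beside −0.01 over all genes tested. The replicate block called 15 higher and 1 lower, beside 4.25% higher and 2.74% lower among all genes. This list and the snoRNA host list share EPB41L4A-AS1, ZFAS1 and C6orf48, and SMG5 is also an NMD factor. RP9P, a transcribed pseudogene of the splicing-related gene RP9 (chromosome 7, 32916815 to 32943176), had 18, 22 and 18.9 CPM in F192E, against 7.99, 6.58 and 8.48 CPM in WT. The F192E libraries stood more than 2-fold above every WT library. Its log2 fold change was 1.34 (SE 0.18, adjusted p = 3.8e-06, edgeR), and the parent gene RP9 was also higher (log2 0.63, SE 0.13, adjusted p = 0.00427, edgeR), and how the counting divided reads between the copies was not tested. ZFAND2A, an arsenite-inducible gene whose protein associates with the proteasome (chromosome 7, 1152071 to 1160759), had 22.1, 27 and 26.6 CPM in F192E, against 11.4, 12.7 and 9.93 CPM in WT. The groups were again apart, with a log2 fold change of 1.16 (SE 0.14, adjusted p = 1.3e-06, edgeR). GABARAPL1, an autophagy gene of the LC3 family, had 80.4, 91.8 and 82.8 CPM in F192E, against 40.0, 35.2 and 45.9 CPM in WT (log2 1.07, SE 0.14, adjusted p = 2.53e-06, edgeR).

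The other called targets differed by less. UPP1, which encodes uridine phosphorylase, had 9.12, 8.94 and 9.71 CPM in F192E, against 6.10, 5.01 and 5.93 CPM in WT (log2 0.70, adjusted p = 0.00895, edgeR), a call that was lost without WT replicate 2. DNAJB2, a co-chaperone gene, had 25.8, 27.8 and 24.1 CPM in F192E, against 17.2, 19.6 and 18 CPM in WT (log2 0.50, adjusted p = 0.00349, edgeR). The groups did not overlap in either gene. Several targets that are widely used as NMD reporters were not called by the fit without the replicate block, which leaves out the pairing of same-numbered libraries. Which of them the block called is not given here. ATF4, the transcription factor gene of the integrated stress response, differed by 0.36 (95% interval 0.14 to 0.58, adjusted p = 0.0843, edgeR). RASSF1, a tumour suppressor gene, differed by 0.38 (95% interval 0.07 to 0.70, adjusted p = 0.261, edgeR). BAG1, a co-chaperone gene, differed by 0.15 (95% interval −0.19 to 0.49, adjusted p = 0.808, edgeR), and GAS5, a noncoding snoRNA host, by 0.40 (95% interval 0.08 to 0.72, adjusted p = 0.241, edgeR). STC2, a secreted glycoprotein gene, had 186, 161 and 269 CPM in F192E, against 84.8, 80.8 and 141 CPM in WT. Its groups were apart, but replicate 3 was the highest of its group in both lines and the difference missed the threshold (adjusted p = 0.134, edgeR). GADD45A and GADD45B, stress-inducible growth arrest genes, differed by 0.63 and 0.49 without a call. At the lower end of the list, SRSF2, RPL12 and RPS9, mRNAs of a splicing factor and of ribosomal proteins with NMD-sensitive splice forms, had −0.34, −0.20 and −0.17.

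Host genes of small nucleolar RNAs are spliced noncoding or short-coding transcripts that are often NMD substrates. Of 30 tested of 31 listed, 6 were higher and 0 were lower, beside 1.51% higher and 0.311% lower among all genes. The median log2 difference was 0.16, beside −0.01 over all genes tested. The replicate block called 10 higher and 0 lower, beside 4.25% higher and 2.74% lower among all genes. EPB41L4A-AS1 (chromosome 5, 112160526 to 112164276) had 64.6, 59.9 and 76.8 CPM in F192E, against 29.4, 29.9 and 35.1 CPM in WT (log2 1.09, SE 0.13, adjusted p = 8.8e-07, edgeR). SNHG7 had 51.7, 58 and 59.5 CPM in F192E, against 32.5, 33.2 and 34.3 CPM in WT (log2 0.76, SE 0.10, adjusted p = 9.31e-06, edgeR). SNHG6 had 51.4, 43 and 66.9 CPM in F192E, against 18.6, 25.2 and 31.7 CPM in WT (log2 1.09, SE 0.19, adjusted p = 0.000556, edgeR). In all 3 genes the F192E libraries lay above the WT libraries, with the least spread in SNHG7. C6orf48, ZFAS1 and SNHG5 were higher by 1.11, 1.06 and 0.89 on the log2 scale. SNHG1, SNHG12 and SNHG16 had 0.15, 0.06 and −0.10 and were not called. EPB41L4A-AS1, ZFAS1 and SNHG7 are named or annotated as antisense to another gene, and without a stated strand setting their reads cannot be told apart from those of a partner.

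The 12 largest rises among called genes with a mean of at least 1 CPM held 6 coding genes, 5 pseudogenes or pseudogene-like loci and the lincRNA FP236383.1. CERS1, a ceramide synthase gene (chromosome 19, 18868545 to 18896727), had 49.1, 58.1 and 54 CPM in F192E, against 23.6, 20.7 and 22 CPM in WT. It was the rise with the smallest p of the 12 and every F192E library stood more than 2-fold above every WT library, with a log2 fold change of 1.28 (SE 0.11, adjusted p = 1.52e-09, edgeR). CERS1 lies next to UPF1 on chromosome 19 on the opposite strand, with its end facing the end of UPF1, and how reads were assigned between them was not tested. CCT6P1, a pseudogene of the chaperonin gene CCT6A, had 6.43, 8.30 and 8.39 CPM in F192E, against 2.85, 3.91 and 3.51 CPM in WT (log2 1.16, SE 0.22, adjusted p = 0.000994, edgeR), while CCT6A itself differed by −0.22 (95% interval −0.59 to 0.16). ROCK1P1, a pseudogene of the kinase gene ROCK1, had 7.88, 7.77 and 9.10 CPM in F192E, against 3.79, 3.60 and 3.88 CPM in WT (log2 1.13, SE 0.25, adjusted p = 0.00653, edgeR), and ROCK1 differed by −0.02 (95% interval −0.33 to 0.30). CDKL3, a kinase gene related to the cyclin-dependent kinases, had 2.63, 3.40 and 4.09 CPM in F192E, against 0.677, 1.41 and 1.21 CPM in WT (log2 1.60, SE 0.33, adjusted p = 0.00352, edgeR). RP9P and ZFAND2A, given above, were among the 12.

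The other 6 of the largest rises stayed under 10 CPM in each library, and their calls depended on single libraries. EFNA1, which encodes the membrane-bound ligand ephrin-A1, had 2.63, 3.83 and 2.35 CPM in F192E, against 0.406, 0.470 and 1.45 CPM in WT (log2 1.84, SE 0.46, adjusted p = 0.0244, edgeR), and its log2 value lay between 1.52 without WT replicate 1 and 2.69 without WT replicate 3. GRIN2C, an NMDA receptor subunit gene, had 2.56, 1.70 and 2.66 CPM in F192E, against 0.542, 0.940 and 0.848 CPM in WT (log2 1.57, adjusted p = 0.0262, edgeR). EGF, the gene of epidermal growth factor, had 2.83, 1.92 and 1.64 CPM in F192E, against 0.948, 0.470 and 0.848 CPM in WT (log2 1.48, adjusted p = 0.049, edgeR). In these 3 genes the groups did not overlap. FP236383.1, AC005524.1 and FRG1BP were higher by 1.43, 1.26 and 1.15 on the log2 scale. FP236383.1 had a log2 difference of 1.94 with siNT, where endogenous UPF1 had not been targeted (adjusted p = 0.0571, edgeR). The calls of EFNA1, GRIN2C, EGF, FP236383.1 and AC005524.1 were each lost without WT replicate 1 and without WT replicate 2, and in part without other libraries, and that of FRG1BP without F192E replicate 2 or WT replicate 1.

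The 12 largest falls comprised 11 coding genes and LINC00632, and most were lost when a library was left out. MAP2K6, a kinase gene that activates p38 (chromosome 17, 69414698 to 69553861), had 18, 16.2 and 15.4 CPM in F192E, against 23.8, 29.1 and 30.9 CPM in WT. Its F192E libraries lay below all WT libraries (log2 −0.75, SE 0.17, adjusted p = 0.00984, edgeR), and the call was lost without F192E replicate 3 or WT replicate 2 or 3. KLHL41, a kelch protein gene of muscle, had 1.66, 1.28 and 1.12 CPM in F192E, against 3.52, 3.29 and 4.84 CPM in WT (log2 −1.5, SE 0.35, adjusted p = 0.0124, edgeR). CCNJL, a cyclin-like gene, had 1.52, 1.17 and 1.74 CPM in F192E, against 4.20, 4.23 and 3.63 CPM in WT (log2 −1.43, SE 0.30, adjusted p = 0.00397, edgeR). AMPH, the gene of the endocytic protein amphiphysin, had 6.22, 7.24 and 7.67 CPM in F192E, against 11, 10.6 and 11.3 CPM in WT (log2 −0.65, SE 0.13, adjusted p = 0.00194, edgeR). CCNJL and AMPH were the 2 of the 12 whose calls held without each library in turn.

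The remaining falls had non-overlapping groups except RAB27B, where the highest F192E library lay above the lowest WT library. RAB27B, a small GTPase gene of vesicle secretion, had 2.49, 1.38 and 1.53 CPM in F192E, against 2.17, 5.48 and 4.97 CPM in WT (log2 −1.17, SE 0.28, adjusted p = 0.0151, edgeR). TMX1, a thioredoxin-related gene of the endoplasmic reticulum, had 14.1, 19.6 and 14.6 CPM in F192E, against 27.2, 35.1 and 23.9 CPM in WT (log2 −0.84, SE 0.23, adjusted p = 0.0444, edgeR). ETV4, an ETS transcription factor gene, was lower with a log2 fold change of −0.94, as was IL12RB2, an interleukin-12 receptor subunit gene, with −0.70. The actin regulator genes CAP2 and ARPC1B had −0.69 and −0.59, and PTRHD1 and LINC00632 had −0.68 and −0.93. LINC00632 had a log2 difference of −0.97 with siNT (adjusted p = 1, edgeR). Each of the calls of RAB27B, TMX1, ETV4, IL12RB2, CAP2, ARPC1B, PTRHD1, LINC00632 and KLHL41 was lost without at least 3 of the 6 libraries taken singly.

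**Figure D3:**
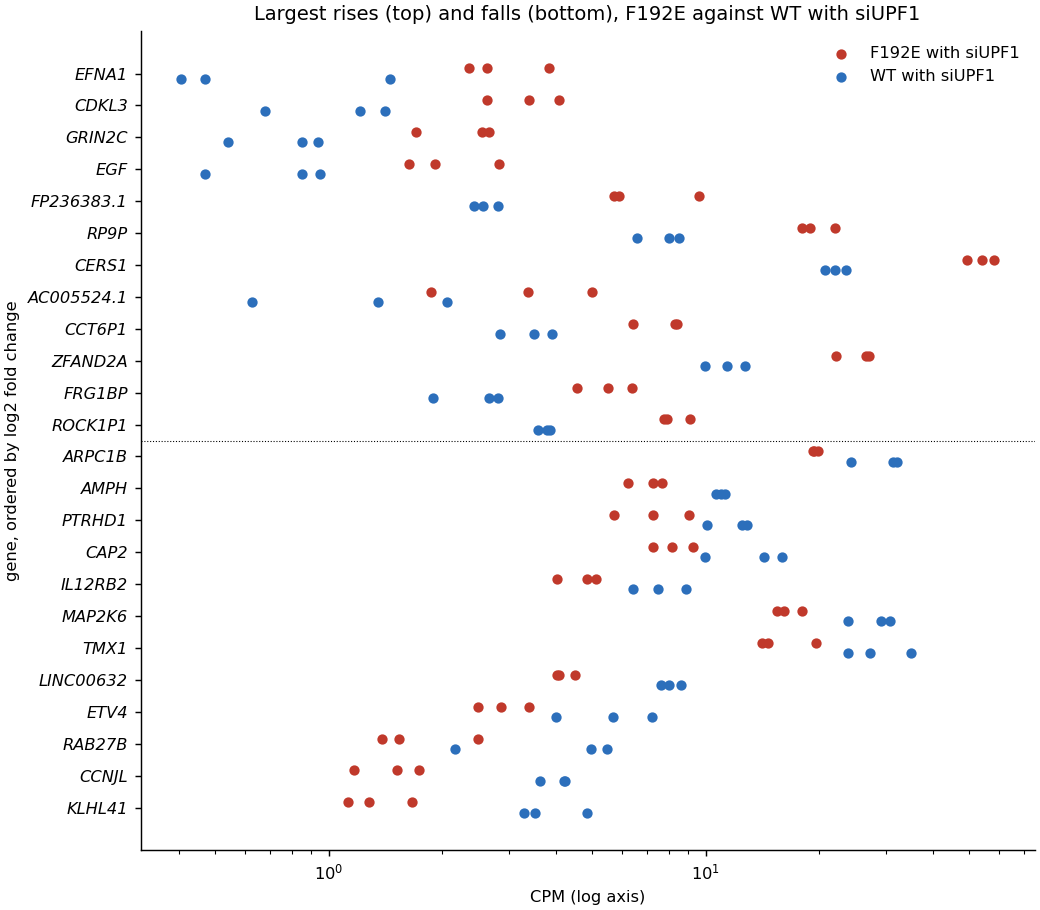
The CPM of each library (log axis) is plotted for the 12 largest rises (above the dotted line) and the 12 largest falls (below it), F192E in red above WT in blue within each gene. The groups are apart in each row except AC005524.1 and RAB27B, and most rows lie under 10 CPM, with CERS1 the highest.

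By gene type, 205 of the higher and 50 of the lower genes were coding, out of 13306 coding genes tested. Transcribed unprocessed pseudogenes, which are duplicated gene copies that are transcribed and often spliced, had 23 higher and 0 lower of 260 (8.85% higher, median log2 difference 0.22), beside 1.54% higher and 0.376% lower of the coding genes (median −0.02). Processed pseudogenes, which arise by retrotransposition and lack introns, had 2 higher of 823 (0.243%, median 0.15). Small RNA classes had 0 called genes by edgeR and higher medians, at 0.68 for 74 misc_RNA genes, 0.50 for 25 snoRNA genes and 0.40 for 16 snRNA genes. With siNT these medians were −0.32, −0.19 and −0.20. The class sums did not rise in the same way. Summed misc_RNA levels were 14367, 19634 and 17066 CPM in F192E, against 16587, 19943 and 18630 CPM in WT with siUPF1. Summed snoRNA levels were 499, 1971 and 758 CPM in F192E, against 690, 878 and 932 CPM in WT. The knockdown in the CLIP line called 36.2% of transcribed unprocessed pseudogenes, 20.5% of coding genes and 3.4% of processed pseudogenes higher. Of the 205 higher coding genes 110 (53.7%) had a transcript annotated as an NMD substrate in GENCODE 29, as did 21 of the 50 lower ones (42%) and 5681 of all 13306 (42.7%). The higher and the lower genes were also more strongly expressed (medians of 59.9 and 63.4 CPM, against 30.6 CPM for all coding genes) and had a median of 8 annotated transcripts each, against 7, and the part of level in the difference was not tested.

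The CLIP line shows which genes change with siUPF1 when no CLIP-UPF1 is present. Its libraries are in neither arm of the F192E and WT comparison. They did enter the same model, and so its estimate of spread, filter and scaling. In CLIP, 1571 genes were at least 1.5-fold higher (9.41%) and 1447 at least 1.5-fold lower (8.67%) with siUPF1 than with siNT at an adjusted p under 0.05. Of the 252 genes higher in F192E, 158 (62.7%) belonged to the raised set, which is 10.1% of that set, and 3 to the lowered set. Of the 52 lower genes, 19 (36.5%) belonged to the lowered set, 1.31% of that set, and 1 to the raised set. At any fold, 210 of the 252 (83.3%) were higher in the CLIP knockdown, beside 18.1% of all genes, and 36 of the 52 (69.2%) were lower, beside 15.6%. Without WT replicate 2 the number of raised-set genes higher in F192E was 89, with the replicate block it was 370, and with the compared groups alone in the fit it was 68. Same-numbered F192E and CLIP libraries with siUPF1 had correlations of 0.0300 to 0.125 in their deviations.

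The difference between F192E and WT was larger among genes with a larger response in CLIP. The 74 genes that rose by more than 2 on the log2 scale in CLIP had a median log2 difference of 0.68 between F192E and WT with siUPF1, and the 128 genes that rose by 1.5 to 2 had 0.52. The median was 0.28 for 487 genes at 1 to 1.5 and 0.13 for 1912 genes at 0.5 to 1. Genes that fell in CLIP by 0.5 to 1 and by 1 to 1.5 had −0.08 and −0.07, and those that fell by 1.5 to 2 and by more than 2 had −0.21 and −0.32 (208 and 89 genes). With siNT the medians of the same bins lay between −0.01 and 0.07. The bins are groups of genes and not replicates, so these medians carry no test.

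**Figure D4:**
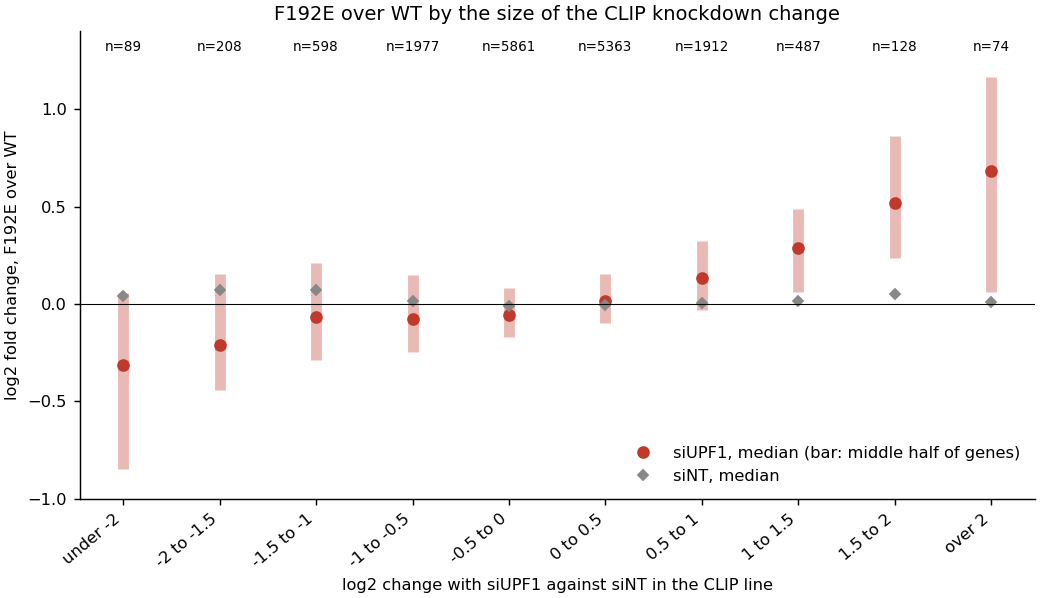
Genes tested are binned by their log2 change with siUPF1 against siNT in the CLIP line, and the vertical axis gives the log2 fold change of F192E over WT (red, median and interquartile range with siUPF1, and grey, median with siNT). The siUPF1 medians run from −0.32 in the lowest bin to 0.68 in the highest, while the siNT medians stay within 0.07 of 0.

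The level of the raised set in F192E with siUPF1 lay between those in WT and CLIP. The mean log2 CPM over the raised set was 4.68 ± 0.01 in F192E, against 4.45 ± 0.05 in WT (SD, n = 3 each), and the groups did not overlap. It was 4.58 ± 0.04 in I757R, 4.46 ± 0.04 in E797R, 4.62 ± 0.03 in FE-ER, 4.59 ± 0.05 in IR-ER, 4.90 ± 0.06 in LECY and 4.96 ± 0.05 in CLIP (n = 3 each). The value of CLIP is high by construction, since its libraries chose the set. With siNT, F192E stood at 4.05 ± 0.07 and WT at 4.04 ± 0.05 (n = 3 each). Over the lowered set the means were 2.94 ± 0.07 in F192E and 3.03 ± 0.10 in WT (n = 3 each). The groups overlapped, but within each same-numbered pair F192E was the lower, at 2.93 in F192E against 2.95 in WT, 2.87 against 2.99 and 3.02 against 3.14.

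**Figure D5:**
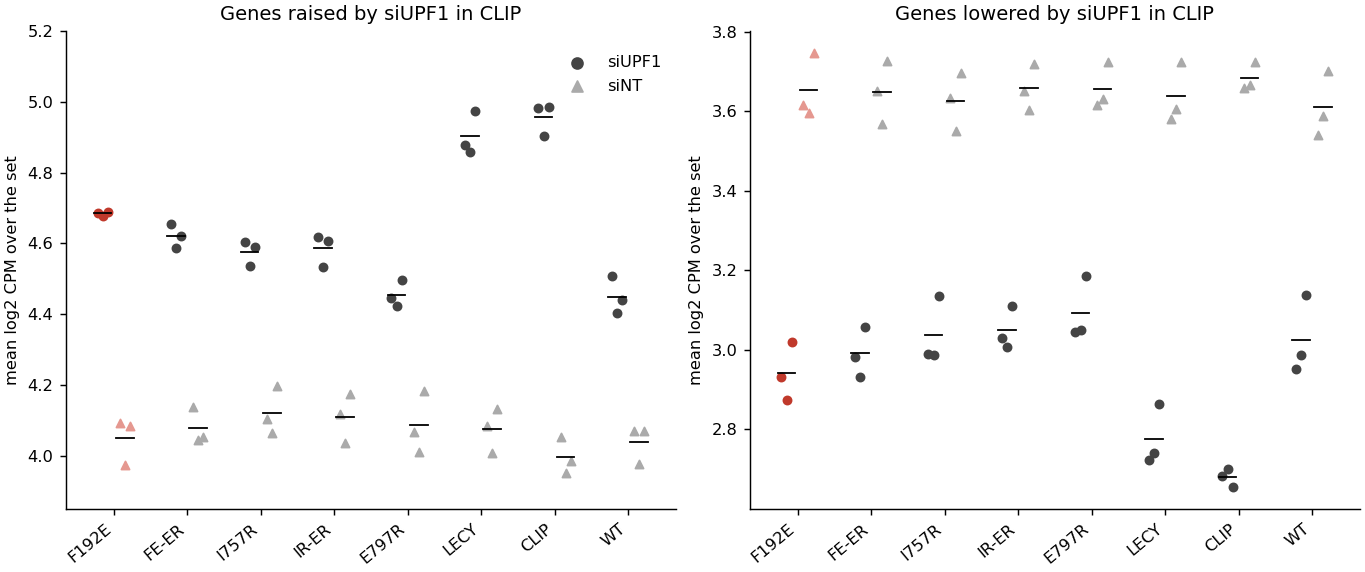
Points give the mean log2 CPM of each library over the genes raised (left) and lowered (right) by siUPF1 in CLIP, circles for siUPF1, triangles for siNT, with group means as lines and F192E in red. On the left the F192E libraries with siUPF1 lie near 4.68, above WT near 4.45 and below LECY and CLIP, whereas with siNT all lines lie between 4.0 and 4.12 on average.

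With siNT, where endogenous UPF1 had not been targeted, no gene differed between F192E and WT by edgeR (0% higher and 0% lower of 16697). Unadjusted, 323 genes had p under 0.05. DESeq2 and the fit with the replicate block called 2 genes each, the fit without an expression filter 32, and the fit of the compared groups alone with the block 92. SMG1 averaged 342 ± 23.2 CPM in F192E and 362 ± 25.4 CPM in WT, and UPF3B 105 ± 4.86 CPM in F192E and 90.4 ± 3.41 CPM in WT (SD, n = 3 each). The 95% interval of the log2 difference was −0.26 to 0.09 for SMG1 and −0.01 to 0.43 for UPF3B. Of the 252 genes higher with siUPF1, 200 (79.4%) had a log2 difference above 0 with siNT, beside 48.8% of all genes, with a median of 0.08. Of the 52 lower genes 9 (17.3%) were above 0, with a median of −0.11. Libraries of the 2 siRNAs are separate, but same-numbered libraries of a line deviated together (correlations of 0.138 to 0.374 in F192E and 0.245 to 0.390 in WT).

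The signed log2 knockdown effect, siUPF1 against siNT, was higher in F192E than in WT for 30 genes (0.18%) by the interaction term of edgeR. It was lower for 0 genes, and 732 had an unadjusted p under 0.05. Higher here means a larger rise, a smaller fall, or a rise in F192E against a fall in WT. The replicate block gave 84 higher (0.503%) and 10 lower (0.0599%), and the fit without an expression filter 71 and 16. The fit of the compared groups alone gave 2 higher effects. Of the 30 genes 27 belonged to the set raised in CLIP, which held 9.41% of all genes tested. RP9P had the largest interaction, with a log2 knockdown effect of 1.52 in F192E and 0.18 in WT (difference 1.34, SE 0.26, adjusted p = 0.00952, edgeR). ZFAND2A had 0.97 in F192E and −0.24 in WT (adjusted p = 0.00203, edgeR), and EPB41L4A-AS1 had 0.92 and −0.19 (adjusted p = 0.00203, edgeR). AC026271.3, a sense intronic transcript, had 0.82 in F192E and −0.33 in WT (adjusted p = 0.0177, edgeR). Among the NMD factors SMG1 and UPF3B passed (5 members did with the replicate block), with SMG1 at 1.11 in F192E and 0.14 in WT (adjusted p = 1.78e-05, edgeR). The 6 genes named here were higher with siUPF1 than with siNT in F192E, with adjusted p at most 0.000172 in edgeR (AC026271.3), and none of them passed the test in WT. The other 4 NMD factors that were higher in F192E than in WT did not pass the interaction test. SMG9, SMG6, SMG5 and UPF2 had knockdown effects of 0.23, 0.13, 0.20 and 0.62 in F192E, and of −0.40, −0.20, −0.36 and 0.13 in WT. Over the 20 NMD factors, siUPF1 raised 5 and lowered 1 in F192E, beside 11.8% and 10.1% of all genes, and raised 1 and lowered 4 in WT, beside 8.43% and 6.98%. With the replicate block these counts were 7 and 4 in F192E, beside 17.9% and 16.7% of all genes, and 2 and 6 in WT, beside 13.7% and 12.4%. SMG9 was among the 4 lowered in WT (adjusted p = 0.0265, edgeR), and its effect in F192E did not pass the test. Over the 45 established NMD targets, siUPF1 raised 15 and lowered 4 in F192E and raised 2 and lowered 4 in WT, and with the replicate block 22 and 10 in F192E and 3 and 7 in WT. The count of 30 was 14 without the F192E siNT replicate 3, 17 without the WT siNT replicate 2, and 15 and 16 without the WT siUPF1 replicates 2 and 3.

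Against CLIP with siUPF1, the line without CLIP-UPF1, F192E had 52 genes higher (0.311%) and 350 lower (2.1%). The lists held 0 higher and 3 lower of 20 NMD factors, 0 and 16 of 45 NMD targets and 0 and 8 of 30 snoRNA hosts. UPF1 was the largest difference, at 7.55 on the log2 scale. Of the 6 NMD factor genes called against WT, SMG1 averaged 739.8 ± 55.2 CPM in F192E and 982 ± 64 CPM in CLIP (log2 −0.41, SE 0.09, adjusted p = 0.00326, edgeR; SD, n = 3 each). SMG6 and SMG5 were also lower than in CLIP (log2 −0.40 and −0.57, adjusted p = 0.0234 and 0.0155, edgeR). UPF3B averaged 179 ± 30.9 CPM in F192E and 180.4 ± 9.63 CPM in CLIP (SD, n = 3 each), with a 95% interval of −0.23 to 0.20 for the log2 difference, and UPF2 had an interval of −0.33 to 0.19. RASSF1, not called against WT, was lower than in CLIP (log2 −1.27, adjusted p = 3.43e-07, edgeR). MAP2K6 was higher than in CLIP (log2 1.52, adjusted p = 1.79e-06, edgeR) while lower than in WT, and CCT6P1 was lower than in CLIP (log2 −1.78, adjusted p = 4.45e-08, edgeR). With the compared groups alone the counts were 25 and 232. They moved to 28 higher without CLIP replicate 2, to 17 and 212 without CLIP replicate 3, to 16 higher without F192E replicate 1 and to 18 and 230 without F192E replicate 3.

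Against FE-ER with siUPF1, F192E had 13 genes higher (0.0779%) and 2 lower (0.012%). Of the lists, 1 of 20 NMD factors and 1 of 45 NMD targets were higher, and 0 of 30 snoRNA hosts. UPF3B averaged 179 ± 30.9 CPM in F192E and 119.9 ± 11.2 CPM in FE-ER (SD, n = 3 each; log2 0.58, SE 0.11, adjusted p = 0.00884, edgeR), and it was the 1 NMD factor of 20 that was called. GXYLT1, a xylosyltransferase gene, averaged 223 ± 6.48 CPM in F192E and 125 ± 6.84 CPM in FE-ER (n = 3 each; log2 0.83, SE 0.11, adjusted p = 6.38e-05, edgeR). ZFAND2A was higher by 0.73 (adjusted p = 0.00884, edgeR), and SMG1 had a 95% interval of 0.08 to 0.43. LINC02226 and C4A, at a few CPM, were higher by 2.63 and 2.03, and LINC00632 and AP002990.1 were lower, with log2 fold changes of −1.53 and −1.13. Of these 4 genes only LINC00632 was also called against WT. The count of 15 called genes was 3 with the compared groups alone in the fit, 31 by DESeq2 and 66 without an expression filter. It was 8 without F192E replicate 2 and 6, 9 and 9 without FE-ER replicates 1, 2 and 3.

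The same WT libraries were set against each of the other lines with siUPF1, so these comparisons are given side by side. Against WT, edgeR called 1437 genes higher (8.61%) and 910 lower (5.45%) in CLIP and 1366 (8.18%) and 892 (5.34%) in LECY. It called 64 (0.383%) and 7 (0.0419%) in FE-ER, 29 (0.174%) and 12 (0.0719%) in IR-ER, 12 (0.0719%) and 1 (0.00599%) in I757R, and 0 (0%) and 8 (0.0479%) in E797R. With the replicate block the higher and lower genes numbered 2187 and 2049 in CLIP and 2097 and 1977 in LECY. They numbered 280 and 156 in FE-ER, 163 and 169 in IR-ER, 54 and 35 in I757R, and 6 and 74 in E797R. Whether replicate numbers pair WT with these lines was not tested. Of the 20 NMD factors 6 were higher in F192E, 3 in I757R, 0 in E797R, 2 in IR-ER, 3 in FE-ER, and 8 in each of LECY and CLIP. With the block, 6 were higher and 1 lower in F192E, 5 and 2 in FE-ER, and 10 and 3 in each of LECY and CLIP. The block gave 3 and 0 in I757R, 0 and 1 in E797R, and 2 and 0 in IR-ER. Of the 45 NMD targets 9 were higher in F192E, 2 in I757R, 0 in E797R, 4 in IR-ER, 4 in FE-ER, and 30 in each of LECY and CLIP. With the block, 15 were higher and 1 lower in F192E, 6 and 0 in FE-ER, and 6 and 0 in IR-ER. The block gave 3 and 1 in I757R, 0 and 0 in E797R, 32 and 5 in LECY, and 34 and 5 in CLIP. The log2 difference of SMG1 from WT was 0.90 in F192E, 1.33 in LECY and 1.3 in CLIP. It was 0.60 in I757R, −0.08 in E797R, 0.58 in IR-ER and 0.64 in FE-ER. That of UPF3B was 1.08 in F192E, 1.13 in LECY and 1.10 in CLIP, and 0.55 in I757R, −0.69 in E797R, 0.16 in IR-ER and 0.51 in FE-ER. In E797R UPF3B was lower than in WT (adjusted p = 0.0021, edgeR).

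Other pathways had at most 3 called members each without the replicate block, beside 1.51% higher and 0.311% lower among all genes. With the block they had up to 8, beside 4.25% higher and 2.74% lower among all genes. Of 41 ATF4 stress response genes 2 were higher and 1 was lower (median log2 difference 0.19), and the replicate block called 7 and 1. GPT2, an alanine aminotransferase gene, had 151, 149 and 185 CPM in F192E, against 77, 63.6 and 88.8 CPM in WT (log2 1.08, SE 0.19, adjusted p = 0.000717, edgeR), with groups well apart. SLC7A5, an amino acid transporter gene, had 169.9, 176 and 186 CPM in F192E, against 127, 106 and 129.6 CPM in WT (log2 0.55, SE 0.13, adjusted p = 0.0151, edgeR), and its call was lost without F192E replicate 3 or WT replicate 2. EPRS, a tRNA synthetase gene, was lower (log2 −0.31, adjusted p = 0.021, edgeR), a call lost without F192E replicate 1 or 3 or WT replicate 2 or 3. Of 45 splicing factor genes with poison exons 2 were higher and 0 lower (median −0.11), and the replicate block called 2 and 2. The higher genes were HNRNPH3 by 0.44 and RBM39 by 0.32, both lost without F192E replicate 2 or WT replicate 1, and RBM39 also without WT replicate 2 or 3. Of 23 immediate early genes KLF6 alone was called (log2 0.74, adjusted p = 0.0341, edgeR; median of the list 0.25), and not without F192E replicate 1 or 3 or WT replicate 2 or 3.

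EdgeR called 0 genes in the unfolded protein response (23 tested, median −0.20), p53 targets (23, 0.21), cytosolic ribosomal proteins (77, −0.08), cell division (25, −0.15), DNA replication (25, −0.08), cholesterol synthesis (22, −0.22), interferon response (17, −0.04), selenoproteins (20, −0.11), mRNA decay enzymes (30, −0.09) and replication-dependent histones (35, −0.21). With the replicate block, which called 4.25% of all genes higher and 2.74% lower, there were 7 lower cholesterol synthesis genes, 6 lower and 1 higher in the unfolded protein response, 5 lower cell division genes, 4 lower histone genes, 4 lower ribosomal protein genes, 3 lower and 1 higher in DNA replication, 3 higher p53 targets, 1 lower selenoprotein gene and 1 lower mRNA decay gene, and 0 in the interferon list. The medians stand beside −0.01 for all genes.

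Library quality and cell identity were read from marker lists. The 6 libraries held 6580973 to 14551811 counts, and their replicates differed beyond counting error, with chi-square values per degree of freedom of 7.11 to 14.1. All 8 genes typical of 293 cells were detected in the 6 libraries. Of the other lists, 3 of 8 fibroblast markers, 4 of 8 neuronal markers, 1 of 8 blood cell markers and 0 of 6 hepatocyte markers passed the expression filter, 3 of the hepatocyte markers had 0 counts in all 6 libraries, and the neuronal vesicle gene SYP was the 1 marker called (log2 0.86, adjusted p = 0.0295, edgeR), a call lost without any 1 of 5 of the libraries. Mitochondrially encoded mRNAs took 27210.4 to 32997 CPM in F192E and 28037 to 34599.9 CPM in WT, and none of 13 was called. The mitochondrial ribosomal RNA MT-RNR2 had 262, 7.34 and 5.42 CPM in F192E, against 16, 2.98 and 6.30 CPM in WT, so that F192E replicate 1 stood apart, and summed snoRNA levels were 1971 CPM in F192E replicate 2, against 499 to 932 CPM in the other 5 libraries. The part of these 2 libraries in the gene results was not tested beyond the counts without them given above.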

How the data were processed

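The authors deposited RSEM expected counts (estimated counts, not normalized) for 58870 genes in 48 libraries. Of the values 9.16% were not whole. Cutadapt, STAR, RSEM, DESeq2 and hg38 are named per the submitters' processing notes, with no versions, order or roles. The annotation release and strand setting are not given in the sources used here. Per the labels' protocols, total RNA was depleted of ribosomal RNA with antisense oligonucleotides and RNase H before paired-end sequencing. A read that fits several gene copies is divided by estimation in such counts, so values of pseudogenes and paralogs are less certain.

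Counts were rounded and fitted with edgeR 4.0.16 (R 4.3.3): 1 quasi-likelihood model over 48 libraries and 16 groups, TMM factors, and an expression filter with a minimum count of 10, which kept 16697 genes. Genes were called at a Benjamini-Hochberg adjusted p under 0.05. Library totals ran from 6016962 to 14551811, which limits precision for low genes. CPM used TMM-scaled library sizes, and SE came from the fold change and its F statistic. GENCODE 29 gave names, types and positions for 16667 of the genes tested.

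Beside UPF1, genes were named by rule: the 12 largest rises and 12 largest falls among called genes with a mean of at least 1 CPM, the 4 largest in each direction in each other comparison, the 4 called members with the smallest p in each list, and members of the NMD factor and NMD target lists. RP9, CCT6A, ROCK1, the SMG1 pseudogenes, SNHG5, SNHG12, SNHG16 and SYP were chosen after their values were seen. Another gene that the rule covers is not reported here. The groups, members and lists were chosen with earlier results of these data known.

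Same-numbered libraries of F192E and WT paired (correlations of deviations from group means of 0.117 to 0.353 with siUPF1 and 0.224 to 0.463 with siNT), as did the siUPF1 and siNT libraries of each line, so counts from a fit with a replicate block stand beside those over all genes and over the lists that the block moves. Alternatives were DESeq2 1.42.0, RLE factors, no expression filter, only the compared groups, the block, and leaving out each library. Tested on simulated counts for F192E against WT with siUPF1, the fit recovered 35.8% of 1.5-fold, 62.7% of 2-fold and 90.9% of 3-fold changes, with 5 false calls among 16468 genes. The simulated counts were independent draws around a common mean per gene. They held no shared deviation of same-numbered libraries, so these rates need not hold for the real libraries.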

Additional observations from a re-analysis of the deposited data

Results flagged for a closer look

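Knockdown effects that differed between the F192E and WT lines stood out, by the interaction term of edgeR at an adjusted p under 0.05. The signed knockdown effect was higher in F192E for 30 genes, which need not mean that it was larger in size. CERS1 had 0.44 in F192E and −0.59 in WT. Among the genes named here, the knockdown effect in F192E minus that in WT was 1.34 on the log2 scale for RP9P, 1.21 for ZFAND2A, 1.15 for AC026271.3, 1.11 for EPB41L4A-AS1 and 1.03 for CERS1. It was 0.98 for SMG1, 0.88 for GABARAPL1, 0.87 for UPF3B, 0.83 for SNHG7 and 0.76 for GXYLT1. Same-numbered libraries of these 4 groups deviated together, and with the replicate block 84 genes had a higher and 10 a lower signed effect in F192E.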

How the results depend on the processing

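The main limits are 3 libraries per group and 1 line per UPF1 form, so that differences between lines and between UPF1 forms cannot be told apart, and 62.7% recovery of 2-fold changes in simulated data. Counts of called genes depended on how the spread was estimated. Of 50 named called genes 17 were called under every alternative and none changed sign. DESeq2 kept 50, RLE factors 49, no expression filter 40, only the compared groups 22, these with the block 46, the block alone 50, and single libraries left out 30 to 35.

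With the replicate block, F192E against WT with siUPF1 gave 710 higher and 457 lower genes, the siNT comparison 2, the knockdown difference 84 and 10, and the raised set 370 higher genes, with 15 NMD targets and 10 snoRNA hosts. Replicate numbers did not clearly pair F192E with CLIP or FE-ER. Same-numbered libraries had correlations of 0.0300 to 0.125 with CLIP, and different-numbered ones reached 0.0585. With FE-ER the same-numbered ones had 0.0708 to 0.254, and the different-numbered ones reached 0.268. Between F192E and WT the different-numbered ones reached 0.0622, below every same-numbered one. The block gave 328 higher and 831 lower genes against CLIP and 49 called genes against FE-ER. With only the compared groups in the fit, the counts were 81 and 4 against WT, 2 higher for the knockdown difference, 25 and 232 against CLIP, 3 against FE-ER and 68 in the raised set. The same fit with the replicate block, added after seeing the data, gave 431 and 137 against WT, 92 with siNT, 80 and 10 for the knockdown difference, 123 higher against CLIP, 47 against FE-ER, 272 in the raised set and 17 NMD targets. DESeq2 called 114 lower genes against WT, 2 with siNT and 31 against FE-ER. Without the expression filter there were 32 with siNT, 71 and 16 for the knockdown difference and 66 against FE-ER. The cause of these shifts was not tested.

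Leaving out single libraries gave 128 to 221 higher and 18 to 64 lower genes against WT, 89 to 162 in the raised set, 14 to 32 for the knockdown difference, 16 to 67 higher and 212 to 350 lower against CLIP, and 6 to 15 against FE-ER. The median of the raised set stayed between 0.16 and 0.22 and that of the lowered set between −0.16 and −0.07.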
